A study of Mus musculus with 18 samples.

Results

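The polypyrimidine tract-binding (PTB) protein genes Ptbp1, Ptbp2 and Ptbp3 were followed at the level of single transcripts in mouse blood stem and progenitor cells with and without Ptbp1. The members were taken by gene symbol: every transcript that the GENCODE M21 annotation assigns to one of the 3 genes was included, which gave 42 transcripts of the 136288 quantified, and 3 genes of 53458. Ptbp1 has 16 of them, of which 6 are annotated as protein coding, 3 as targets of nonsense-mediated decay (NMD), 5 as retained-intron and 2 as other processed transcripts. Ptbp2 has 13 (5 coding, 2 NMD, 3 retained-intron and 3 processed), and Ptbp3 has 13 (9 coding, 2 NMD and 2 retained-intron). A mean of at least 1 TPM (transcript abundance corrected for length and scaled to the library) in some group was reached by 34 of the 42, and the other 8 stayed at or below 0.827 TPM in every group mean. Those 8 are Ptbp1-209, Ptbp1-210, Ptbp1-211, Ptbp1-212, Ptbp2-204, Ptbp3-203, Ptbp3-210 and Ptbp3-211.

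The PTB proteins bind pyrimidine-rich RNA through several RNA recognition motifs and mostly repress the exons next to which they bind. PTBP1 is made in most cell types, PTBP2 (also called nPTB) is best known from neurons, and PTBP3 (also called ROD1) was first described in blood cells. The family regulates itself through splicing: PTBP1 promotes skipping of a short exon in its own pre-mRNA and of the matching exon in Ptbp2 pre-mRNA. Skipping of that exon shifts the reading frame, and the transcript is then degraded by NMD, the pathway that removes messages with an early stop codon. In developing neurons, a fall of PTBP1 is known to allow inclusion of the Ptbp2 exon and production of PTBP2.

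The exon at the centre of this circuit is 34 bases long in each gene, so it is not a multiple of 3 and its loss shifts the frame. It lies at chr10:79862014-79862047 on the plus strand in Ptbp1, at chr3:119724612-119724645 on the minus strand in Ptbp2 and at chr4:59485339-59485372 on the minus strand in Ptbp3 (GRCm38, as are all coordinates here). The 3 exons are shown side by side because inclusion of this exon in Ptbp1 and Ptbp2 is followed below. Self-regulation itself was not tested. Capitals mark the positions where the 3 genes do not all share the base.
Ptbp1 34-base exon: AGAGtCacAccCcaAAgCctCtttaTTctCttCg
Ptbp2 34-base exon: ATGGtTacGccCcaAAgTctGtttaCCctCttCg
Ptbp3 34-base exon: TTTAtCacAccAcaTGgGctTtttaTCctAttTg
All 3 genes share 19 of the 34 bases. Ptbp1 and Ptbp2 are identical at 26 bases (76.5%), Ptbp1 and Ptbp3 at 22 (64.7%), and Ptbp2 and Ptbp3 at 21 (61.8%). The annotation holds transcripts with and without the exon for Ptbp1 and Ptbp2, and none without it for Ptbp3.

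Skipping joins different sequence to the preceding Ptbp1 exon. In the 2 joins below, capitals mark the first 15 bases after the join, which belong to the 34-base exon in the coding transcript Ptbp1-216 and to the following 93-base exon in the NMD transcript Ptbp1-201.
Ptbp1 join with the 34-base exon: aatctgaaccctgagAGAGTCACACCCCAA
Ptbp1 join without the 34-base exon: aatctgaaccctgagGCGTCTACGGTGATG
The annotated coding sequence is 1665 bases in Ptbp1-216 and 1059 bases in Ptbp1-201. The 150 bases of intron directly before the exon, chr10:79861864-79862013, are shown because PTB proteins bind such tracts, with runs of at least 5 pyrimidines in capitals.
Ptbp1 intron before the 34-base exon: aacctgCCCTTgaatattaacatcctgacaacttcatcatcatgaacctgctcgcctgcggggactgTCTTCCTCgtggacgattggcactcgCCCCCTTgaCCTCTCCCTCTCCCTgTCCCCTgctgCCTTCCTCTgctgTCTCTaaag
The window holds 7 such runs with 55 bases in all, and 66.7% of it is pyrimidine. Among 9571 windows of 150 bases before exons, each read from an annotated retained-intron transcript, the median was 28 bases in runs and 54% pyrimidine. As many bases in runs were found in 5.8% of these windows, and as high a pyrimidine share in 3.7%. On the transcript strand the motif TCTT occurs once in the Ptbp1 window and in 71.2% of all windows, and CTCTCT does not occur in it but does in 12.6% of all windows. These matches describe the sequence and do not show binding.

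Total RNA from sorted bone marrow of C57BL/6 mice was sequenced in 3 populations on the path to red cells and platelets. Haematopoietic stem cells (HSC) were Lin-, Sca-1+, c-kit+, CD150+ and CD48-. Bipotent megakaryocyte-erythroid precursors (preMegE) were CD150+ and CD105- cells among Lin-, c-kit+ and Sca-1- cells that also lacked CD41 and FcgRII/III, and early erythroid precursors (preCFU-E) differed from them in the gate by being CD105+. KO libraries came from Ptbp1 -/- mice and WT libraries from Ptbp1 fl/fl mice, which carry the floxed alleles of Ptbp1, with 3 biological replicates for each genotype in each population, 18 libraries in all. For the Cre driver, the deleted exons and the age and sex of the mice, nothing was given in the sources used here.

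Each library held between 15956408 and 29226287 assigned reads. The HSC markers were highest in HSC and the erythroid markers in preCFU-E. Values are in CPM (reads scaled to the library total, not corrected for length). The 7 HSC marker genes summed to 983 to 1242 CPM in KO HSC and 1334 to 1378 CPM in WT HSC. They summed to 21.4 CPM or less in preCFU-E. There 7 erythroid markers summed to 6382 to 6729 CPM in KO and 5538 to 6980 CPM in WT. Lymphoid markers were highest in preMegE, at 222 to 260 CPM in KO and 204 to 275 CPM in WT. Nearly all of that was Nkg7, at means of 237 CPM in KO and 243 CPM in WT. The summed 5 megakaryocyte markers overlapped between genotypes in HSC, at 162 to 259 CPM in KO and 150 to 191 CPM in WT. They summed to 82.8 to 123.5 CPM in KO preMegE against 152 to 181 CPM in WT preMegE, and each of the 5 means was lower in KO. In preCFU-E the sum was 25.2 to 28.9 CPM in KO against 39.7 to 48.4 CPM in WT. There only Gp1ba (16.6 against 27.6 CPM) and Vwf (6.07 against 11.9 CPM) were lower in KO, and the means of Pf4, Itga2b and Gp9 were slightly higher in KO. The summed HSC markers also stood lower in KO than in WT in HSC, as given, and in preMegE, at 145 to 147 CPM in KO against 153 to 183 CPM in WT. Of their members, Slamf1 and Ly6a had higher means in KO in HSC, and Procr, Hlf and Fgd5 in preMegE. The endothelial and stromal markers summed lower in KO in HSC (11.1 to 12.2 CPM in KO against 18.4 to 34.1 CPM in WT) and preCFU-E (0.420 to 0.481 against 0.743 to 0.884 CPM). The macrophage markers summed lower in KO in preCFU-E (1.49 to 3.42 against 3.54 to 5.01 CPM). Neuronal markers, of interest for Ptbp2, summed to 2.22 to 2.48 CPM in KO preCFU-E against 1.06 to 2.19 CPM in WT preCFU-E, and to at most 2.12 CPM elsewhere. In preCFU-E nearly all of this was 1 gene, Tubb3, at means of 2.33 CPM in KO and 1.38 CPM in WT. There 3 of the 6 neuronal genes were at 0 in each genotype, and the rest averaged 0.0410 CPM or less. The part of these marker differences in the differences between KO and WT below was not tested. Xist was high in the HSC libraries and near 0 in the others, so that population differences from HSC cannot be told apart from the sex of the animals. In bulk samples of this kind, fewer cells of a type and less RNA per cell cannot be told apart.

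Ptbp1, the deleted gene, was lower in the KO libraries of each population, but reads remained. It had 90.3, 108 and 96.3 CPM in KO HSC, against 221, 208 and 196 CPM in WT HSC. It had 189, 187 and 232 CPM in KO preMegE, against 596, 697 and 787 CPM in WT preMegE. It had 298, 303 and 318 CPM in KO preCFU-E, against 1116, 1272 and 1345 CPM in WT preCFU-E. Within no population did KO and WT libraries overlap. The log2 difference (KO minus WT) was -1.09 (SE 0.128), -1.77 (SE 0.130) and -2.02 (SE 0.131) along the path, for which the adjusted p was 0.000211, 1.2e-07 and 5.51e-09 in edgeR's quasi-likelihood test over all genes. Of the 21565 genes tested, the share called in either direction in these populations was 0.844%, 0.0603% and 0.153%.

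Ptbp2, the paralog, was higher in KO libraries throughout. It had 92.9, 125 and 128 CPM in KO HSC, against 44.2, 60.9 and 62.9 CPM in WT HSC. It had 74.8, 89.4 and 84.0 CPM in KO preMegE, against 19.0, 18.9 and 15.4 CPM in WT preMegE. It had 130, 142 and 144 CPM in KO preCFU-E, against 11.5, 10.9 and 7.75 CPM in WT preCFU-E. Every KO library was above every WT library of its population, and also above every WT library of the other populations. The log2 differences were 1.04 (SE 0.170, adjusted p = 0.00583), 2.22 (SE 0.178, adjusted p = 3.45e-07) and 3.78 (SE 0.191, adjusted p = 8.69e-11) in the same edgeR test. With only the 6 HSC libraries in the fit, Ptbp2 was not called there (log2 1.05, adjusted p = 0.466), and 5 genes were called in all.

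Ptbp3, the remaining paralog, did not pass the test in any population. It had 324, 365 and 495 CPM in KO HSC, against 404, 430 and 414 CPM in WT HSC. It had 952, 1191 and 1056 CPM in KO preMegE, against 1075, 1183 and 1053 CPM in WT preMegE. It had 1002, 928 and 912 CPM in KO preCFU-E, against 872, 1002 and 1039 CPM in WT preCFU-E. KO and WT libraries overlapped in all 3 populations. In HSC the log2 difference was -0.08 (95% interval -0.36 to 0.20), in preMegE -0.05 (-0.33 to 0.23) and in preCFU-E -0.04 (-0.32 to 0.25). The adjusted p was 0.86, 1 and 1 in edgeR.

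**Figure D1:**
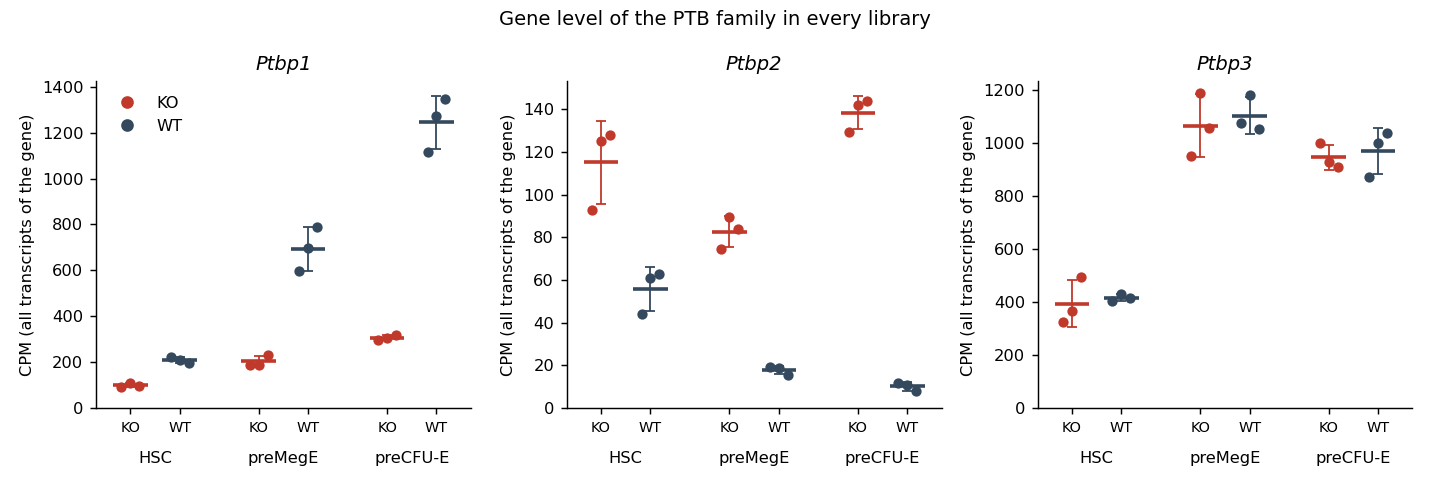
CPM of Ptbp1, Ptbp2 and Ptbp3 in each library, with KO left of WT in each population, lines at group means and error bars of 1 SD. Ptbp1 was lower and Ptbp2 higher in KO in each population without overlap, while the Ptbp3 libraries of both genotypes overlapped.

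The differences in Ptbp2 grew along the path. The KO effect on Ptbp2 was 2.73 log2 units larger in preCFU-E than in HSC (adjusted p = 6.01e-06 for the difference in edgeR), a contrast in which 0.051% of genes were called. It was 1.18 larger in preMegE than in HSC (adjusted p = 0.121, 0.0325% of genes called) and 1.56 larger in preCFU-E than in preMegE (adjusted p = 0.0576, 0% called), neither of which passed. For Ptbp1 the KO effect differed by -0.94 between preCFU-E and HSC (adjusted p = 0.0604), by -0.69 between preMegE and HSC (adjusted p = 0.224) and by -0.25 between preCFU-E and preMegE (adjusted p = 1). For Ptbp3 these differences lay between 0.01 and 0.04.

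In WT cells Ptbp1 and Ptbp2 ran in opposite directions along the path. In WT preMegE against WT HSC, Ptbp1 was higher by 1.74 and Ptbp2 lower by 1.65 on the log2 scale (a change of -1.65), with adjusted p of 1.3e-09 and 1.82e-07 in edgeR. In WT preCFU-E against WT preMegE, Ptbp1 changed by 0.84 and Ptbp2 by -0.81 (adjusted p 3.03e-05 and 0.0014). Many genes move at these steps: 53.7% of all genes were called in the first and 26.8% in the second, and the median gene moved by -0.43 and -0.18. In KO cells Ptbp1 also rose, by 1.05 in preMegE against HSC and by 0.60 in preCFU-E against preMegE (adjusted p 1.23e-06 and 0.000885). Ptbp2 in KO cells changed by -0.48 at the first step and by 0.74 at the second (adjusted p 0.0224 and 0.00161), so that at the later step it rose in KO and fell in WT. The first of these was lost without replicate 2 or 3 of KO HSC or replicate 1 or 3 of KO preMegE (-0.48 to -0.39). In KO, 52.7% and 36.1% of genes were called at these steps, with medians of -0.36 and -0.32. Ptbp3 rose by 1.44 in KO and 1.41 in WT in preMegE against HSC, and changed by -0.17 and -0.18 in preCFU-E against preMegE (adjusted p 0.332 and 0.352).

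From lowest to highest, the Ptbp1 means ran from 98.1 ± 8.83 CPM in KO HSC through 203 ± 25.4 in KO preMegE, 208 ± 12.5 in WT HSC, 306 ± 10.5 in KO preCFU-E and 693 ± 95.8 in WT preMegE to 1244 ± 117 in WT preCFU-E (SD, n = 3 each). KO preMegE and WT HSC overlapped, and no other neighbours in that order did. The Ptbp2 means ran from 10.04 ± 2.01 CPM in WT preCFU-E through 17.8 ± 2.04 in WT preMegE, 55.97 ± 10.3 in WT HSC, 82.7 ± 7.42 in KO preMegE and 115 ± 19.5 in KO HSC to 139 ± 7.90 in KO preCFU-E, with no overlap between neighbours. The population with the lowest Ptbp2 in WT was thus the one with the highest Ptbp2 in KO. The Ptbp3 means fell into a low pair, 394 ± 89.3 in KO HSC and 416 ± 12.9 in WT HSC, and 4 higher groups between 947 and 1104 CPM whose neighbours overlapped.

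Levels per transcript length give an estimate, by annotated transcript, of what remained of Ptbp1 in KO cells. Summed over the 6 coding transcripts, Ptbp1 had 8.13, 2.604 and 3.71 TPM in KO HSC, against 54.0, 65.3 and 58.4 TPM in WT HSC. The same sum was 14.99, 11.8 and 4.79 TPM in KO preMegE, against 71.5, 127.5 and 122.7 TPM in WT preMegE. It was 6.97, 14.4 and 8.50 TPM in KO preCFU-E, against 131, 159 and 162 TPM in WT preCFU-E. The KO means were 8.13%, 9.82% and 6.61% of the WT means, and the groups did not overlap. Averaged over the 3 populations, log2(TPM + 0.1) of coding Ptbp1 was lower by 3.72 (a difference of -3.72), with p = 0.00025 and adjusted p = 0.001 in an exact two-sided permutation test within populations. That p is the smallest the 8000 arrangements allow, and p-values were adjusted over 16 such tests, which have no background share.

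The other Ptbp1 classes did not all follow the coding class. NMD transcripts averaged 0 TPM in KO HSC, 0.479 in KO preMegE and 0.150 in KO preCFU-E, against 9.61 ± 4.09, 71.3 ± 21.9 and 90.2 ± 9.96 TPM in WT HSC, preMegE and preCFU-E. Retained-intron transcripts averaged 79.2 ± 6.71, 77.6 ± 14.6 and 82.6 ± 13.2 TPM in these KO populations, against 86.3 ± 43.2, 237 ± 57.4 and 368 ± 22.4 TPM in WT (SD, n = 3 each). The retained-intron level was thus close to equal across the KO populations, while in WT it was highest in preCFU-E and lowest in HSC. The retained-intron difference, averaged over populations, was -1.25 (exact permutation, p = 0.0025, adjusted p = 0.00667), and within HSC alone it was -0.002. The NMD class differed by -7.57 and the processed class by -6.89 on the log2(TPM + 0.1) scale (adjusted p 0.001 and 0.0016, exact permutation test), values that depend on the pseudocount because KO was at or near 0. Coding transcripts made up 5.56%, 12.3% and 11.02% of all Ptbp1 TPM in KO HSC, preMegE and preCFU-E, against 36.5%, 22.5% and 21% in WT, a mean difference of -17.0 percentage points (adjusted p = 0.001, exact permutation test).

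**Figure D2:**
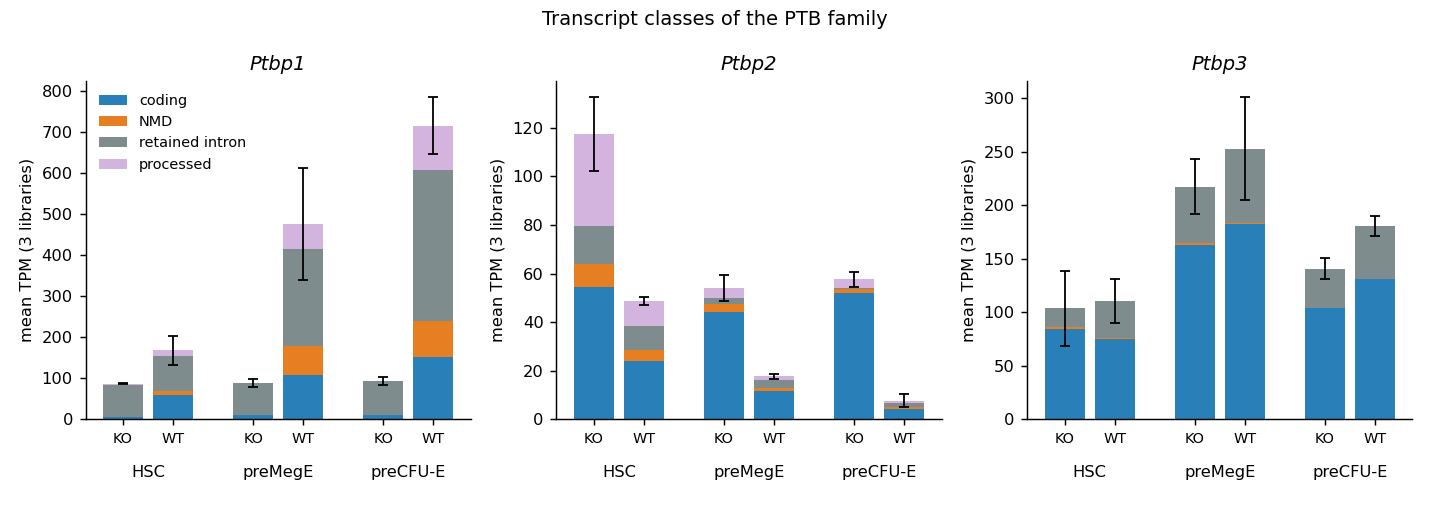
Mean TPM of coding, NMD, retained-intron and processed transcripts of each PTB gene, stacked, with KO left of WT in each population and error bars of 1 SD of the total. Ptbp1 in KO consists mostly of retained-intron transcripts, at 77.6 to 82.6 TPM, and Ptbp2 in KO preMegE and preCFU-E mostly of coding transcripts.

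Among single transcripts, 30 of the 42 passed the filter on low counts and entered the edgeR fit over all 53608 transcripts. In HSC, 4 were called lower and 1 higher in KO, in preMegE 3 lower and 2 higher, and in preCFU-E 3 lower and 2 higher. Over all transcripts tested, 0.147%, 0.0112% and 0.0354% were called lower and 0.138%, 0.0056% and 0.0205% higher in the 3 populations. Salmon divides reads among overlapping transcripts by likelihood, and 97.6% of the family's non-zero read values were not whole numbers, so a value of 1 transcript is an estimate that depends on the others.

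The NMD transcript Ptbp1-201, which lacks the 34-base exon, was at 0, 0 and 0 TPM in KO HSC, against 4.80, 13.1 and 5.27 TPM in WT HSC. It was at 0, 0.0885 and 0 TPM in KO preMegE, against 44.0, 74.4 and 82.8 TPM in WT preMegE. It was at 0, 0 and 0 TPM in KO preCFU-E, against 77.2, 97.9 and 91.8 TPM in WT preCFU-E. With a floor of 3 reads per library it was at least 74.4-fold lower in KO HSC and at least 909-fold lower in KO preCFU-E, and the adjusted p values in edgeR were 0.00119, 0.00147 and 0.000677. With only the 6 HSC libraries in the fit, Ptbp1-201 was not called in HSC (adjusted p = 0.503).

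2 short transcripts from the 5′ part of the gene were absent from the KO estimates in the same way. Ptbp1-203, a processed transcript, was at 0 TPM in all 9 KO libraries, against means of 13.5, 61.1 and 107 TPM in WT HSC, preMegE and preCFU-E (at least 30.6-fold, 136-fold and 273-fold lower in KO; adjusted p 0.00828, 0.0142 and 0.00548 in edgeR). Ptbp1-214, a retained-intron transcript, was also at 0 TPM in all 9, against 32.6, 126 and 202 TPM (at least 97.0-fold, 375-fold and 677-fold lower; adjusted p 0.000742, 0.00147 and 0.000726). With each population fitted alone, both lost their HSC calls (adjusted p 0.668 for Ptbp1-203 and 0.503 for Ptbp1-214), and Ptbp1-203 also its preMegE call (adjusted p = 0.0814). The NMD transcript Ptbp1-207 was at most 0.940 TPM in any KO library and averaged between 1.28 and 4.18 TPM in WT groups, and it was not called.

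The long coding transcripts were low in KO but, at 3 libraries a group, not all called. Ptbp1-216, which holds the 78-base exon, averaged 0.644 TPM in KO HSC against 23.6 in WT HSC (log2 -5.36, adjusted p = 0.000627 in edgeR, and 0.491 with HSC fitted alone). It averaged 6.16 against 40.3 TPM in KO and WT preMegE (log2 -2.58, adjusted p = 0.307) and 7.29 against 50.5 TPM in KO and WT preCFU-E (log2 -2.41, adjusted p = 0.210). DESeq2 called it in both (adjusted p 9.78e-05 and 0.000471), and so did edgeR in preCFU-E fitted alone (adjusted p = 0.01198). Ptbp1-202, which lacks the 78-base exon, was at 0 TPM in all 3 KO HSC libraries against a mean of 29.6 TPM in WT HSC, at least 430-fold lower, with an adjusted p of 0.0654 in edgeR, 0.0351 with HSC fitted alone and 6.41e-09 in DESeq2. It averaged 3.94 against 64.5 TPM in KO and WT preMegE and 2.14 against 97.2 TPM in KO and WT preCFU-E, with adjusted p of 1 for each, although KO and WT libraries did not overlap. The coding transcript Ptbp1-206 stayed at or below 1.49 TPM in KO libraries and 3.71 TPM in WT libraries, and the short coding Ptbp1-215 and processed Ptbp1-208 reached 5.35 and 6.84 TPM in 1 KO HSC library.

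What remained in KO was assigned mainly to Ptbp1-205 and Ptbp1-213. Ptbp1-205 is a retained-intron transcript that runs over most of the gene (chr10:79854633-79863818) and includes the 34-base and 78-base exons. It averaged 32.9, 52.4 and 61.8 TPM in KO HSC, preMegE and preCFU-E, against 34.04, 110 and 163 TPM in WT, with log2 differences of -0.19, -0.96 and -1.03 that were not called in edgeR (adjusted p 0.846, 0.266 and 0.0745). DESeq2 called it lower in preMegE (-0.97, adjusted p = 0.00709) and preCFU-E (-0.999, adjusted p = 0.00323), and edgeR did in preCFU-E fitted alone (adjusted p = 0.00837). It held 49.0%, 59.5% and 66.8% of Ptbp1 reads in KO, against 26.2%, 33.7% and 34.3% in WT.

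Ptbp1-213 is a retained-intron transcript at the 3′ end, from within the 34-base exon (chr10:79862017-79864432). It had 29.9, 30.8 and 32.2 TPM in KO HSC, against 15.6, 3.65 and 5.38 TPM in WT HSC. It had 16.8, 27.1 and 29.7 TPM in KO preMegE, against 0.560, 0.283 and 0.220 TPM in WT preMegE. It had 23.5, 11.98 and 26.1 TPM in KO preCFU-E, against 1.29, 0.776 and 0.329 TPM in WT preCFU-E. All KO libraries were above the WT libraries of their population, and the log2 differences were 1.82 (adjusted p = 0.22), 6.13 (adjusted p = 0.00271) and 5.04 (adjusted p = 0.00548) in edgeR. Without replicate 2 of WT preCFU-E the last call was lost (log2 4.97, adjusted p = 0.0684), as was the preMegE call with that population fitted alone (adjusted p = 0.0634), while DESeq2 also called the HSC difference (adjusted p = 0.0204). The nearby retained-intron transcript Ptbp1-204 averaged 15.3 TPM in KO HSC and 10.7 in WT HSC, and was at or below 1.06 TPM in all other libraries.

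By transcript position, the share of Ptbp1 reads assigned to transcripts confined to the 5′ part was lower in KO. The share assigned to transcripts confined to the 3′ part was higher. These are estimates per transcript, and the positions of the reads themselves were not measured. The 8 Ptbp1 transcripts that end in the 5′ part had 31, 4 and 5 reads in KO HSC, against 623, 233 and 288 reads in WT HSC. They had 2, 0 and 2 reads in KO preMegE against 1771, 2023 and 2270 in WT preMegE, and 1, 1 and 0 in KO preCFU-E against 4133, 3449 and 2620 in WT preCFU-E. The 2 transcripts confined to the 3′ part, Ptbp1-204 and Ptbp1-213, held 46.4%, 25.0% and 19.4% of Ptbp1 reads in KO HSC, preMegE and preCFU-E, against 6.98%, 0.142% and 0.177% in WT. Most reads in both genotypes were on the 6 transcripts that span both parts, at 53.0%, 75.0% and 80.6% in KO against 85.2%, 87.8% and 85.7% in WT. The library protocol does not state strand, and Plppr3, a gene on the minus strand that overlaps this region, averaged 26.8, 6.16 and 1.89 CPM in KO against 38.9, 5.36 and 4.14 CPM in WT. Its part in the reads assigned to the 3′ transcripts was not tested. Within Ptbp1, transcript usage was called in all 3 populations (adjusted p 3.12e-10, 2.57e-07 and 1.32e-08 over 8 transcripts, edgeR's gene-level usage test), against 5.25%, 0.433% and 0.393% of the 9935 genes tested. For Ptbp2 usage was not called (adjusted p 0.466, 1 and 0.267 over 11 transcripts), nor for Ptbp3 (0.933, 1 and 1 over 4 transcripts).

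**Figure D3:**
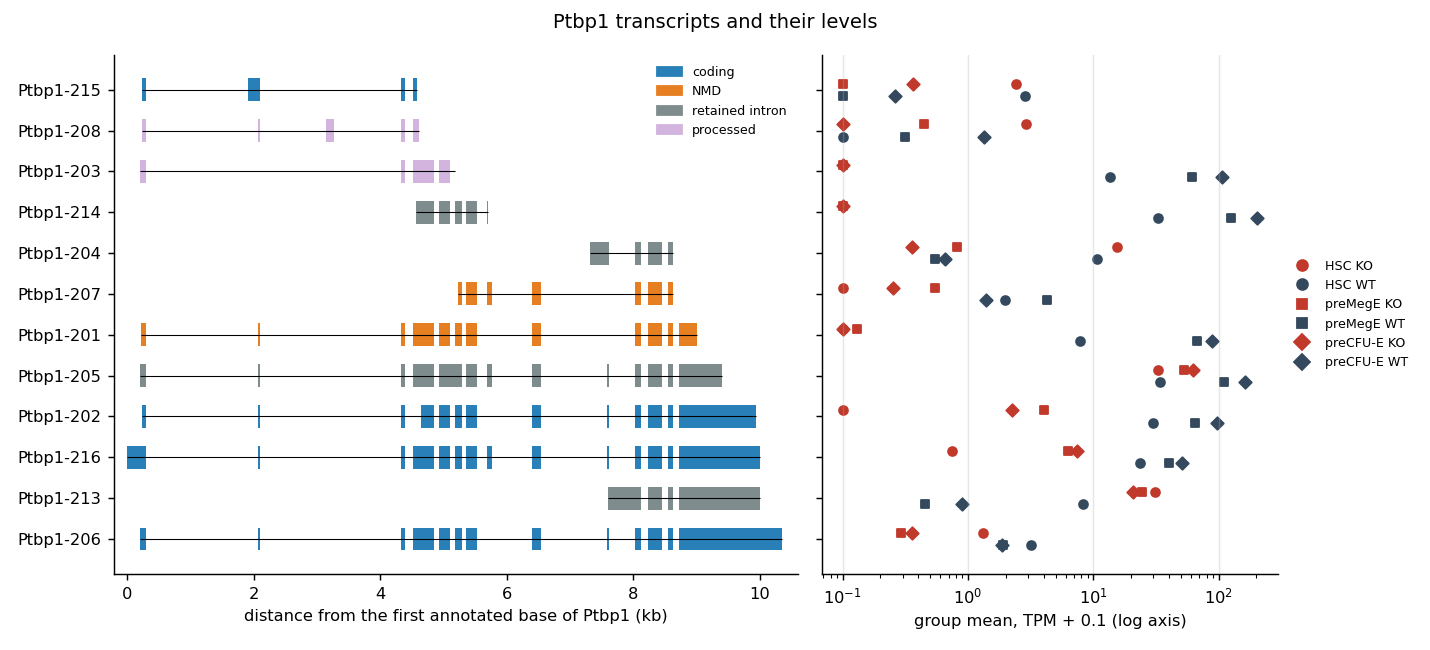
Annotated Ptbp1 transcripts drawn to scale by distance in kb from the gene's first base, beside the group means as TPM + 0.1 on a log axis (KO upper, WT lower in each row). Transcripts of the 5′ part such as Ptbp1-203 and Ptbp1-214 are at 0 TPM in KO, while the 3′ transcript Ptbp1-213 is higher in KO.

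Inclusion of the 34-base exon of Ptbp1 was almost complete in the estimates from KO cells. Reads were assigned to annotated transcripts only, and the deleted exons are not known. How RNA of the deleted allele was assigned was not tested, which limits all KO values of Ptbp1 transcripts, classes and exons. Inclusion is given here as percent spliced in (PSI), TPM with the exon divided by the TPM of all transcripts that span it. In HSC the PSI was 100% in each of 3 KO libraries, against 94.7%, 86.5% and 89.9% in WT. In preMegE it was 99.3%, 99.9% and 98.6% in KO, against 76.8%, 75.5% and 74.0% in WT. In preCFU-E it was 99.3%, 100% and 100% in KO, against 77.9%, 76.7% and 78.3% in WT. The groups did not overlap, and the skipped form was present in every WT library. A call needed an adjusted p below 0.05 in limma and a change of at least 10 points: the exon was called in preMegE (23.8 points, adjusted p = 0.000135) and in preCFU-E (22.2 points, adjusted p = 6.49e-05), and HSC fell short of the 10 points (9.66 points, adjusted p = 0.000673). Of 8054 exons tested, 1.37%, 0.174% and 0.745% were called in HSC, preMegE and preCFU-E. In KO the included forms were mostly Ptbp1-205. Without it, an alternative added after the data were seen and not tested, mean PSI was 100%, 92.6% and 97.9% in KO HSC, preMegE and preCFU-E, against 85.8%, 60.03% and 62.3% in WT, at 1.85, 10.3 and 9.69 TPM of included forms in KO.

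2 further Ptbp1 exons were called. The 78-base exon (chr10:79860117-79860194) is a cassette whose length keeps the frame. Ptbp1-216 holds it, and the coding Ptbp1-202 and Ptbp1-206 lack it. Their coding sequences are 1665, 1467 and 1587 bases, so Ptbp1-202 differs from Ptbp1-216 elsewhere too. The exon had a PSI of 95%, 95.9% and 98.2% in KO HSC, against 59.7%, 56.1% and 63.2% in WT HSC. Mean PSI was 93.4% in KO preMegE and 96.7% in KO preCFU-E, against 53.6% in WT preMegE and 53.4% in WT preCFU-E. The differences were 36.7 points (adjusted p = 0.0200), 39.8 points (adjusted p = 0.0724, not called) and 43.3 points (adjusted p = 0.00993) in limma. The HSC call was lost without replicate 2 of WT HSC (34.9 points) and the preCFU-E call without replicate 1 or 3 of KO preCFU-E (41.8 and 42.7 points). These values rest on Ptbp1-205: without it, an alternative added after the data were seen, mean PSI was 34.3%, 67.5% and 79.7% in KO HSC, preMegE and preCFU-E, against 38.2%, 24.5% and 21.6% in WT, so that the difference in HSC changed sign to -3.88 points. The 31-base exon (chr10:79856504-79856534) was at 100% in all 9 KO libraries, against means of 88.6%, 83.0% and 79.2% in WT, and was called in all 3 populations (adjusted p 0.000769, 0.000245 and 8.91e-05). It is skipped only in the short Ptbp1-203, which was at 0 TPM in all 9 KO libraries. The KO value of 100% follows from that and does not show that the exon is present in KO RNA. By reads instead of TPM the differences for this exon were 2.05, 3.47 and 4.49 points. Its HSC call was lost without replicate 1 or 2 of WT HSC (9.99 and 9.22 points).

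Ptbp3 has a 78-base exon at the matching place (chr4:59488111-59488188, minus strand), for which the annotation has no transcript that skips it. Both are shown because the long coding forms of Ptbp1 differ in whether they hold this exon, with capitals where the bases differ.
Ptbp1 78-base exon: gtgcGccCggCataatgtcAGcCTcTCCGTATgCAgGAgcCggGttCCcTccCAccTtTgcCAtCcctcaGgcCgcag
Ptbp3 78-base exon: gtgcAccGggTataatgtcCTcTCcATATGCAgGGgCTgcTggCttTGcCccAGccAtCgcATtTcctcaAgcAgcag
They share 46 of 78 bases (59%).

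The coding transcripts of Ptbp2 were higher in KO cells. Their sum was 47.3, 46.5 and 69.4 TPM in KO HSC, against 20.4, 25.5 and 25.9 TPM in WT HSC. It was 45.7, 47.3 and 40.2 TPM in KO preMegE, against 10.1, 12.2 and 12.6 TPM in WT preMegE. It was 49.7, 49.6 and 56.7 TPM in KO preCFU-E, against 4.56, 6.71 and 1.91 TPM in WT preCFU-E. KO and WT did not overlap, and the KO level was similar in the 3 populations while the WT level was lowest in preCFU-E. The KO mean was 2.27, 3.81 and 11.9 times the WT mean along the path, and the mean log2 difference was 2.26 (exact permutation, p = 0.00025, adjusted p = 0.001).

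The other Ptbp2 classes moved less. NMD transcripts averaged 9.64, 3.01 and 1.502 TPM in KO HSC, preMegE and preCFU-E, against 4.50, 1.32 and 0.690 TPM in WT (mean log2 difference 0.69, adjusted p = 0.304, exact permutation). Retained-intron transcripts averaged 15.5, 2.51 and 0.559 TPM in KO, against 10.1, 2.97 and 1.40 TPM in WT (mean log2 difference -0.23, adjusted p = 0.404). Processed transcripts averaged 37.9, 4.13 and 3.48 TPM in KO, against 10.2, 1.66 and 1.18 TPM in WT (1.31, adjusted p = 0.0227, lost without replicate 2 of KO or replicate 3 of WT preCFU-E, at 0.92 and 1.23). Coding transcripts were 45.9%, 82.3% and 90.4% of Ptbp2 TPM in KO, against 49.1%, 66.2% and 54.5% in WT, a mean difference of 16.3 points (adjusted p = 0.0175, exact permutation).

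Single Ptbp2 transcripts had few reads, and only Ptbp2-202 was called. This short coding model, which includes the 34-base exon, had 12.4, 15.9 and 19.3 TPM in KO HSC, against 9.46, 7.86 and 3.77 TPM in WT HSC. It had 17.4, 14.8 and 16.2 TPM in KO preMegE, against 1.40, 2.10 and 1.04 TPM in WT preMegE. It had 26.8, 23.6 and 26.6 TPM in KO preCFU-E, against 0.838, 1.08 and 0.405 TPM in WT preCFU-E. KO was above WT without overlap in each, and the log2 differences were 1.00 (adjusted p = 0.466), 3.46 (adjusted p = 0.0353) and 5.27 (adjusted p = 0.000973) in edgeR. The preMegE call was lost in each of the 6 fits without 1 preMegE library, with log2 differences of 3.23 to 3.67, with preMegE fitted alone (adjusted p = 0.134) and with no filter (adjusted p = 0.0844).

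The full-length coding transcripts Ptbp2-201 and Ptbp2-213 had higher means in KO but did not pass in edgeR over all libraries. Ptbp2-201 averaged 8.36, 11.3 and 16.02 TPM in KO HSC, preMegE and preCFU-E, against 1.32, 0.640 and 0.356 TPM in WT (adjusted p 0.468, 1 and 0.342 in edgeR). Ptbp2-213 averaged 8.17, 4.58 and 8.83 TPM in KO, against 0.891, 0.788 and 0.461 TPM in WT. For both transcripts every KO library was above every WT library of its population. DESeq2 called Ptbp2-201 in preMegE and preCFU-E (adjusted p 0.0453 and 8.28e-05) and Ptbp2-213 in HSC and preCFU-E (adjusted p 0.0467 and 0.000213), and edgeR called Ptbp2-213 in preCFU-E fitted alone (adjusted p = 0.02298). The coding Ptbp2-207, which ends before the 34-base exon, averaged 14.5, 3.96 and 1.07 TPM in KO against 14.7, 2.87 and 1.15 TPM in WT, and Ptbp2-210 varied between 0 and 14.2 TPM among KO libraries. Ptbp2-208, the NMD transcript that skips the 34-base exon and has a coding sequence of 1068 bases instead of 1596 bases in Ptbp2-201, averaged 7.52, 3.01 and 1.502 TPM in KO against 2.00, 1.32 and 0.690 TPM in WT. The processed Ptbp2-209 was at 22.7, 28.8 and 39.5 TPM in KO HSC against 3.41, 2.64 and 0 TPM in WT HSC (adjusted p = 0.598). The remaining Ptbp2 transcripts (Ptbp2-203, Ptbp2-205, Ptbp2-206, Ptbp2-211 and Ptbp2-212) were at or below 9.62 TPM in every library.

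Inclusion of the 34-base exon of Ptbp2 was called in preCFU-E, where the WT values rest on few reads. PSI was 70.3%, 69.3% and 84.8% in KO HSC, against 58.6%, 72.8% and 71.8% in WT HSC. It was 82.8%, 97.1% and 93.6% in KO preMegE, against 68.1%, 73.3% and 59.5% in WT preMegE. It was 93.3%, 100% and 98.03% in KO preCFU-E, against 75.0%, 68.5% and 54.9% in WT preCFU-E. The groups overlapped in HSC and did not in the other 2 populations. The differences were 7.05 points (adjusted p = 0.802), 24.2 points (adjusted p = 0.418) and 30.97 points (adjusted p = 0.0198) in limma. The preCFU-E call was lost without replicate 2 or 3 of either genotype, with differences of 25.4 to 32.2 points. The exon entered the test by its mean of 25.1 TPM over all 18 libraries, but was far lower in WT preCFU-E. There the included Ptbp2-201, Ptbp2-202 and Ptbp2-213 averaged 0.356, 0.776 and 0.461 TPM, and the skipping Ptbp2-208 averaged 0.690 TPM. Summed over the 3 libraries, these were 96.6, 12, 100.5 and 71.2 reads, so the WT PSI is uncertain. In WT the mean PSI was close to equal in the 3 populations, at 67.7%, 67.0% and 66.1%, although Ptbp2 as a gene fell. The skipped form is a target of NMD, so PSI in the remaining RNA understates skipping by an amount that was not measured.

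**Figure D4:**
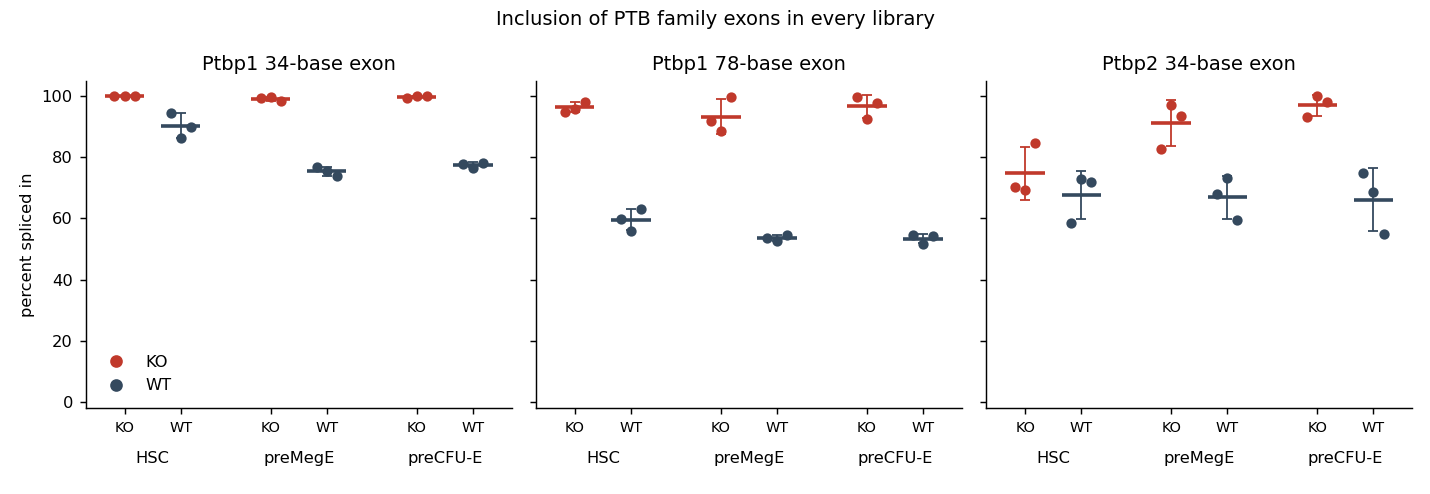
Percent spliced in of the Ptbp1 34-base and 78-base exons and of the Ptbp2 34-base exon in each library, KO left of WT, with lines at group means and error bars of 1 SD. The Ptbp1 34-base exon is at 98.6% or above in all KO libraries. The Ptbp2 exon separates the genotypes in preMegE and preCFU-E, with few Ptbp2 reads in WT preCFU-E.

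The transcript mixture of Ptbp3 did not pass the usage test given above, but it passed in HSC (adjusted p = 0.00783) and preCFU-E (adjusted p = 0.0480) in edgeR when transcripts of at least 1% of their gene were included. Its coding transcripts averaged 83.8 ± 27.8, 163 ± 16.1 and 104 ± 9.43 TPM in KO HSC, preMegE and preCFU-E, against 75.0 ± 2.19, 182 ± 44.9 and 131 ± 13.3 TPM in WT (SD, n = 3 each), a mean log2 difference of -0.12 (adjusted p = 0.382, exact permutation). The leading coding transcript Ptbp3-212 averaged 45.5, 82.9 and 62.2 TPM in KO against 36.5, 99.1 and 75.3 TPM in WT, and Ptbp3-201 averaged 22.4, 48.7 and 27.5 TPM in KO against 28.01, 49.8 and 38.1 TPM in WT. Ptbp3-212 includes and Ptbp3-201 lacks another 34-base exon, near the 5′ end of the gene (chr4:59546149-59546182). Its mean PSI was 66.7%, 53.5% and 61.9% in KO against 53.5%, 56.6% and 59.3% in WT (adjusted p 0.432, 1 and 1 in limma).

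The retained-intron class of Ptbp3 was the exception. It averaged 16.9, 52.8 and 36.5 TPM in KO HSC, preMegE and preCFU-E, against 35.3, 69.3 and 49.3 TPM in WT, a mean log2 difference of -0.60 (adjusted p = 0.024, exact permutation). Nearly all of it was Ptbp3-209, at 8.80, 13.3 and 18.3 TPM in KO HSC against 29.8, 58.4 and 13.6 TPM in WT HSC, and at means of 52.0 and 36.4 TPM in KO preMegE and preCFU-E against 68.9 and 49.2 TPM in WT. KO and WT overlapped in HSC for this transcript. Scaled by reads per kilobase instead of TPM, the class missed the threshold (-0.51, adjusted p = 0.0542), as it did without replicate 1 or 2 of KO HSC or replicate 2 of WT HSC (-0.52, -0.56 and -0.44). NMD transcripts of Ptbp3 averaged at most 2.75 TPM in any group (mean log2 difference 0.80, adjusted p = 0.210).

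Of the minor Ptbp3 transcripts, Ptbp3-202 was called in HSC. It is a coding transcript and was at 0.209, 3.00 and 2.76 TPM in KO HSC, against 0 TPM in all 3 WT HSC libraries (adjusted p = 0.0416 in edgeR). With a floor of 3 reads per library, the KO mean was at least 36.5-fold higher. The KO library at 0.209 TPM added little to that mean. The call was lost without replicate 2 of KO HSC and without any 1 of the WT HSC libraries (adjusted p up to 0.0847), and with HSC fitted alone (adjusted p = 0.877). Ptbp3-205 averaged 5.76, 22.9 and 10.2 TPM in KO against 5.29, 28.4 and 14.1 TPM in WT. The others (Ptbp3-204, Ptbp3-206, Ptbp3-207, Ptbp3-208 and Ptbp3-213) were at or below 7.12 TPM in every library.

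Summed over the 3 genes, coding TPM in KO was below WT in the progenitors. The sum was 121, 119 and 189 TPM in KO HSC, against 152, 164 and 159 TPM in WT HSC. It was 219.5, 239 and 194 TPM in KO preMegE, against 219, 367 and 316.5 TPM in WT preMegE. It was 164, 157 and 176 TPM in KO preCFU-E, against 251, 302 and 303 TPM in WT preCFU-E. The genotypes overlapped in HSC and preMegE and not in preCFU-E. KO means were 90.5%, 72.3% and 58.1% of WT, and the mean log2 difference was -0.47 (exact permutation, p = 0.0045, adjusted p = 0.0103). Without Ptbp1, the sum averaged 138, 207 and 156 TPM in KO against 98.9, 194 and 135 TPM in WT (mean log2 difference 0.26, adjusted p = 0.0335), a call that was lost in 10 of 18 tests that left out 1 library.

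The composition of the family changed more than its sum. Ptbp1 made up 3.62%, 4.75% and 6.07% of the family's coding TPM in KO HSC, preMegE and preCFU-E, against 37.4%, 35.4% and 52.7% in WT. Ptbp2 made up 38.3%, 20.4% and 31.3% in KO, against 15.1%, 3.98% and 1.55% in WT. Ptbp3 made up 58.1%, 74.8% and 62.6% in KO, against 47.5%, 60.7% and 45.8% in WT. Ptbp3 was therefore the largest coding member in all 3 KO populations and also in WT HSC and WT preMegE, while in WT preCFU-E it was Ptbp1.

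**Figure D5:**
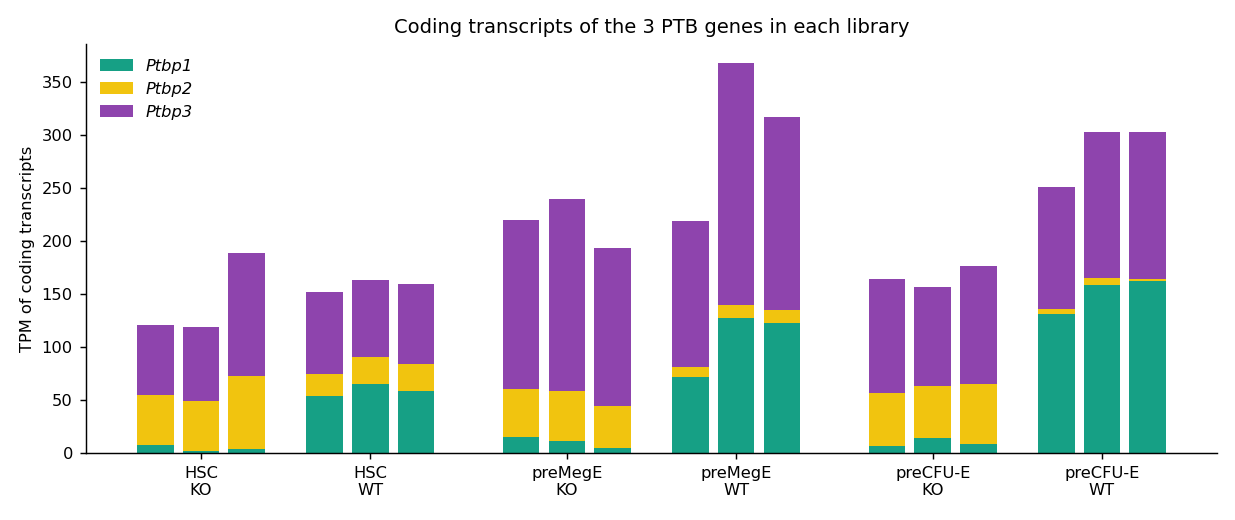
Coding TPM of the PTB genes in each library, stacked by gene, with KO left of WT in each population. The KO totals are lower in preCFU-E, at 157 to 176 TPM against 251 to 303 TPM in WT, and Ptbp2 takes a larger share in KO.

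Other genes of the same machinery were set beside the family. Of 26 partners of PTB proteins and other pyrimidine-tract binders, and of 15 NMD and exon junction factors, all were tested and none was called between KO and WT in any population in edgeR. Since 0.844%, 0.0603% and 0.153% of all genes were called there, a count of 0 among 26 and 15 genes is near the background. Raver1, a co-repressor that binds PTBP1, averaged 127, 268 and 471 CPM in KO HSC, preMegE and preCFU-E, against 138, 288 and 422 CPM in WT. Upf1, the helicase of NMD, averaged 28.1, 37.1 and 63.2 CPM in KO against 24.7, 36.0 and 53.8 CPM in WT. The median log2 difference was -0.09, -0.05 and 0.03 for the PTB partners and 0.15, 0.02 and 0.01 for the NMD factors, against 0.01, 0.01 and -0.00 for all genes. In preMegE against HSC, 5473 of 21565 genes in KO and 5491 in WT were called higher, and 5889 and 6080 lower (52.7% and 53.7% in either direction). At this step 14 of the 26 partners were higher and 4 lower in both genotypes. Of the 15 NMD factors, 11 in KO and 10 in WT were higher, with none lower.

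The genes whose levels were most like those of each member were ranked by Pearson's r of log2 CPM over the 18 libraries, which fall into 6 groups and share population and genotype. For Ptbp1 they were Pgm2 (0.93), Sept11 (0.92), Adgrl1 (0.90), Necap2 (0.89) and Chek2 (0.89). For Ptbp2 they were Gm29170 (0.85), Atat1 (0.82), Pde3b (0.81), Epm2aip1 (0.79) and Gm35279 (0.78). These 5 had a negative r with Ptbp2 within the 9 KO libraries, between -0.76 and -0.41, and a positive one within the 9 WT libraries. For Ptbp3 they were Slc14a1 (0.99), Nfya (0.98), Tug1 (0.98), Itga4 (0.98) and Grb2 (0.98), whose r was also high within each genotype. Likeness was compared over 8351 genes and is a description only.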

How the data were processed

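The deposited tables give, per library, TPM and estimated counts of each transcript, which the authors made with Salmon 0.12.0, per the submitters' processing notes, which also name mm10 and GRCm38.p6. Libraries were made with the NuGEN Ovation kits, per the labels' protocols, which give no strand. Of 136288 transcripts, 136176 matched GENCODE M21 (GRCm38), which supplied names, classes and sequences. The other 112 were left out. Transcripts under 200 bases took 23% to 41.1% of each library's TPM, so TPM of other genes moves with them.

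Estimated counts were rounded and tested for all 18 libraries together in edgeR 4.0.16 (R 4.3.3) by the quasi-likelihood test, with TMM scaling, filterByExpr and Benjamini-Hochberg adjustment over all genes or transcripts. Gene CPM came from counts summed per gene. Exon inclusion was tested in limma 3.58.1 on logit PSI with an offset of 0.01. Class sums, as log2(TPM + 0.1), were compared by exact permutation within populations. DESeq2 1.42.0 was an alternative. Scripts were checked on simulated counts. The members and gene lists were chosen with earlier results of these data known. Transcripts with a group mean of at least 1 TPM are described, and for each member the 5 genes with the highest r. Bounds against 0 reads use group means of estimated reads and cover counting error only. Replicates of 1 group differed beyond sampling noise (chi-square per degree of freedom 13.6 to 159).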

Additional observations from a re-analysis of the deposited data

Results flagged for a closer look

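The KO effect on Ptbp2 differed between populations. The log2 difference (KO minus WT) was 2.73 larger in preCFU-E than in HSC, with an adjusted p of 6.01e-06 for the difference itself in edgeR. Ptbp2 was higher in KO in all 3 populations, at 139 ± 7.90 CPM in KO preCFU-E against 10.04 ± 2.01 CPM in WT preCFU-E, and at 115 ± 19.5 CPM in KO HSC against 55.97 ± 10.3 CPM in WT HSC (SD, n = 3 each). The KO levels of the 2 populations thus lay near each other and the WT levels apart. The HSC and preCFU-E libraries also differ in Xist, so that the population cannot be told apart from the sex of the animals.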

How the results depend on the processing

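Of the KO minus WT gene calls, those of Ptbp1 in 3 populations and of Ptbp2 in preMegE and preCFU-E held in every alternative run, and that of Ptbp2 in HSC was lost when its population was fitted alone (1.05, adjusted p = 0.466). Differences of the KO effect passed in some settings: for Ptbp1 between preMegE and HSC -0.71 with DESeq2, and between preCFU-E and HSC -0.96 with DESeq2, -1.51 with length-scaled counts and -0.92 with no filter. For Ptbp2 they passed between preMegE and HSC (1.16 with DESeq2, 1.16 with no filter) and between preCFU-E and preMegE (1.57 with DESeq2, 1.59 with no filter). The fall of Ptbp2 in KO preMegE against KO HSC was lost with length-scaled counts (-0.33) and with no filter (-0.40). With the 2 populations of the step fitted alone, Ptbp3 passed in preCFU-E against preMegE (-0.29 in KO, -0.34 in WT). With transcripts of at least 1% of their gene, Ptbp3 usage passed in HSC (adjusted p = 0.00783) and preCFU-E (adjusted p = 0.0480). The Ptbp1 31-base exon fell under the 10-point limit by reads (2.05, 3.47 and 4.49 points), and the 78-base exon passed in preMegE with a logit offset of 0.05 (39.8 points). Without Ptbp1-205 the 78-base difference was -3.88, 43.0 and 58.1 points and the 34-base difference 14.2, 32.6 and 35.5 points. The Ptbp3 retained-intron class missed the threshold by reads per kilobase (-0.51). The causes were not tested.

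Same-numbered KO and WT libraries did not deviate together (correlations -0.04 to 0.14, and 2 of 9 KO libraries correlated best with their own number), so the numbers were not taken to pair KO with WT. In preCFU-E and preMegE, same-numbered libraries correlated at 0.076 to 0.242 in WT and at 0.0166 to 0.0470 in KO. In both genotypes each preCFU-E library correlated best with the preMegE library of its own number. This was a hint from the data that stayed under 0.1 for 1 WT pair and for every KO pair. The block changed no PTB gene call at that step. With the replicate block Ptbp1-201, Ptbp1-203 and Ptbp1-214 were called in no population (adjusted p from 0.0927 to 1), nor were Ptbp1-213, Ptbp2-202 and Ptbp3-202 where they had been (0.169 to 0.883), while Ptbp1-216 in HSC was (0.0371). With it the 78-base exon in HSC and preCFU-E (36.7 and 43.3 points, adjusted p 0.0699 and 0.0755) and the Ptbp2 34-base exon in preCFU-E (30.97 points, adjusted p = 0.110) were not called. The block left 94 genes called in HSC, 60, 7 and 13 exons in the 3 populations, and 0 and 2 transcripts in preMegE and preCFU-E by edgeR (1408 preMegE transcripts at unadjusted p under 0.05, and 405 by DESeq2 with no block).

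Counts over all features moved more. Genes called in HSC, preMegE and preCFU-E were 182, 13 and 33, against 644, 61 and 75 by DESeq2 and 360, 27 and 54 with no filter. They were 5, 36 and 252 with each population alone, and 7 in preMegE and 15 in preCFU-E with length-scaled counts. No gene was called for the KO effect in preCFU-E against preMegE by edgeR (564 at unadjusted p under 0.05), and 10 were by DESeq2 and 4 by edgeR with no filter. Transcripts called were 1956, 405 and 454 by DESeq2, and 2 in HSC and 150 in preCFU-E with the population alone. Usage calls were 48, 99 and 115 with the population alone, and 187 exons were called in HSC with an offset of 0.05.

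Leaving out each replicate in turn gave these lowest and highest values. For differences of the KO effect, -1.02 and -0.87 for Ptbp1 between preCFU-E and HSC, 1.00 and 1.29 for Ptbp2 between preMegE and HSC, and for Ptbp3 -0.14 and 0.22, -0.063 and 0.12, and -0.10 and 0.23. For Ptbp2 in KO preMegE against KO HSC, -0.60 and -0.39. For Ptbp3 in KO against WT, -0.27 and 0.052 in HSC and -0.17 and 0.024 in preMegE. For transcripts, -0.31 and 0.00158 for Ptbp1-205 in HSC, and for Ptbp3-212 -0.011 and 0.30, -0.25 and 0.019, and -0.10 and 0.13 in the 3 populations. For Ptbp3 usage in HSC, adjusted p of 0.0126 and 1. For exons in HSC, 9.22 and 15.1 points (31-base), 7.71 and 11.8 (34-base) and 34.9 and 38.5 (78-base). For exons in preCFU-E, 41.8 and 45.3 points (78-base) and 25.4 and 35.4 (Ptbp2), and for the Ptbp3 exon in preMegE -6.26 and 1.60. For classes, 0.32 and 1.17 (Ptbp2 NMD), 0.92 and 1.58 (Ptbp2 processed), -0.20 and -0.060 (Ptbp3 coding), -0.76 and -0.44 (Ptbp3 retained-intron), 0.18 and 0.31 (family without Ptbp1), and 3.21 and 7.73 points (Ptbp3 coding share). Genes called were 89 to 595, 4 to 9 and 14 to 27, transcripts 182 to 477, 6 to 14 and 13 to 22, and exons 145 to 312, 7 to 22 and 31 to 38 in HSC, preMegE and preCFU-E. Usage calls were 21 to 38 in preMegE and 22 to 32 in preCFU-E.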
